A study of Mus musculus with 5 samples.

Results

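Hes1, Hes5, Hey1, Hey2 and Heyl, the transcriptional repressor genes that Notch signalling switches on, and Nrarp, Dtx1, Dtx3l and Lfng, which act back on the pathway or carry a Deltex domain, were followed in mouse urothelium with and without deletion of Ncstn. These 9 genes were taken by symbol from the 24970 genes of the count tables, and 7 of them held enough counts to be tested. In the Ncstn knockouts Hey1 was 3.09-fold lower, Heyl was 2.91-fold lower and Lfng was 2.31-fold higher. Hes1 stood at 148 ± 26.2 CPM (counts scaled to a common library size; SD, n = 3) in the knockouts and 149 ± 9.31 CPM (SD, n = 2) in the wild types, and Hey2, Nrarp and Dtx3l did not pass the test either. Hes5 and Dtx1 had too few counts to test.

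RNA was sequenced from urothelium, the epithelial lining of the bladder, dissected off the underlying muscle of mice aged 10 weeks. Of the 5 mice, 3 were Ncstn KO animals of the genotype Krt5CreERT2;Ncstnflox/flox (KO 1, KO 2 and KO 3) and 2 were wild types (WT 1 and WT 2) whose strain is given as C57Bl/6. In the knockouts a Cre recombinase that needs induction is driven by the promoter of Krt5, a keratin gene of basal cells, so cells outside this lineage keep unrecombined Ncstn alleles. The labels list no Cre for the wild types and no background strain for the knockouts, so loss of Ncstn, the Cre, its induction and any strain difference cannot be told apart. Ncstn encodes nicastrin, a subunit of gamma-secretase.

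When a ligand on a neighbouring cell binds a Notch receptor, gamma-secretase cuts the receptor and its intracellular domain moves to the nucleus. There it joins the DNA-binding protein RBPJ and a Mastermind coactivator and turns on target genes, of which the Hes and Hey genes are the best known. Hes and Hey proteins are basic helix-loop-helix repressors, and Nrarp limits the same pathway by acting on the intracellular domain. In blood vessels Hey1, Hey2 and Heyl are known Notch targets of endothelial and mural cells, so a bulk urothelial sample with some stroma can carry their transcripts from more than 1 cell type.

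Gene counts came to 12608836 to 27188499 in the knockout libraries and 13936790 to 19384171 in the wild types. The precursor ribosomal RNA Rn45s took 0.608% to 1.53% of gene counts in the knockouts and 3.23% to 7.84% in the wild types, and the nuclear RNA Malat1 took 0.0658% to 0.0779% in the knockouts and 0.281% to 0.390% in the wild types. WT 1 had the highest share of both, and the part of these RNAs in the differences below was not tested. Ncstn itself measured 114, 117 and 123 CPM in KO 1, KO 2 and KO 3, against 144 and 130 CPM in WT 1 and WT 2. Its log2 fold change of -0.21 ± 0.09 (SE) missed the threshold (edgeR adjusted p = 0.133), and since reads from exons outside the floxed part are counted too, it does not check the deletion. The urothelial genes Upk2, of umbrella cells, and Krt5, of basal cells, averaged 1626 and 1861 CPM in the knockouts and 890.0 and 1491 CPM in the wild types.

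Across all genes tested, 19.7% changed at a threshold of 0.05 by edgeR's quasi-likelihood test, adjusted over 14779 genes after Benjamini and Hochberg, with 10.0% lower and 9.64% higher in the knockouts. Of the 7 members tested, 2 fell, 1 rose and 4 did not pass. All knockouts lay on 1 side of both wild types in 5 of the 7 members, against 51.0% of all tested genes. They lay below in 3 members (25.1% of all tested genes) and above in 2 (25.9%). The median log2 fold change of the 7 members was -0.12, beside 0.01 for all tested genes.

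**Figure D1:**
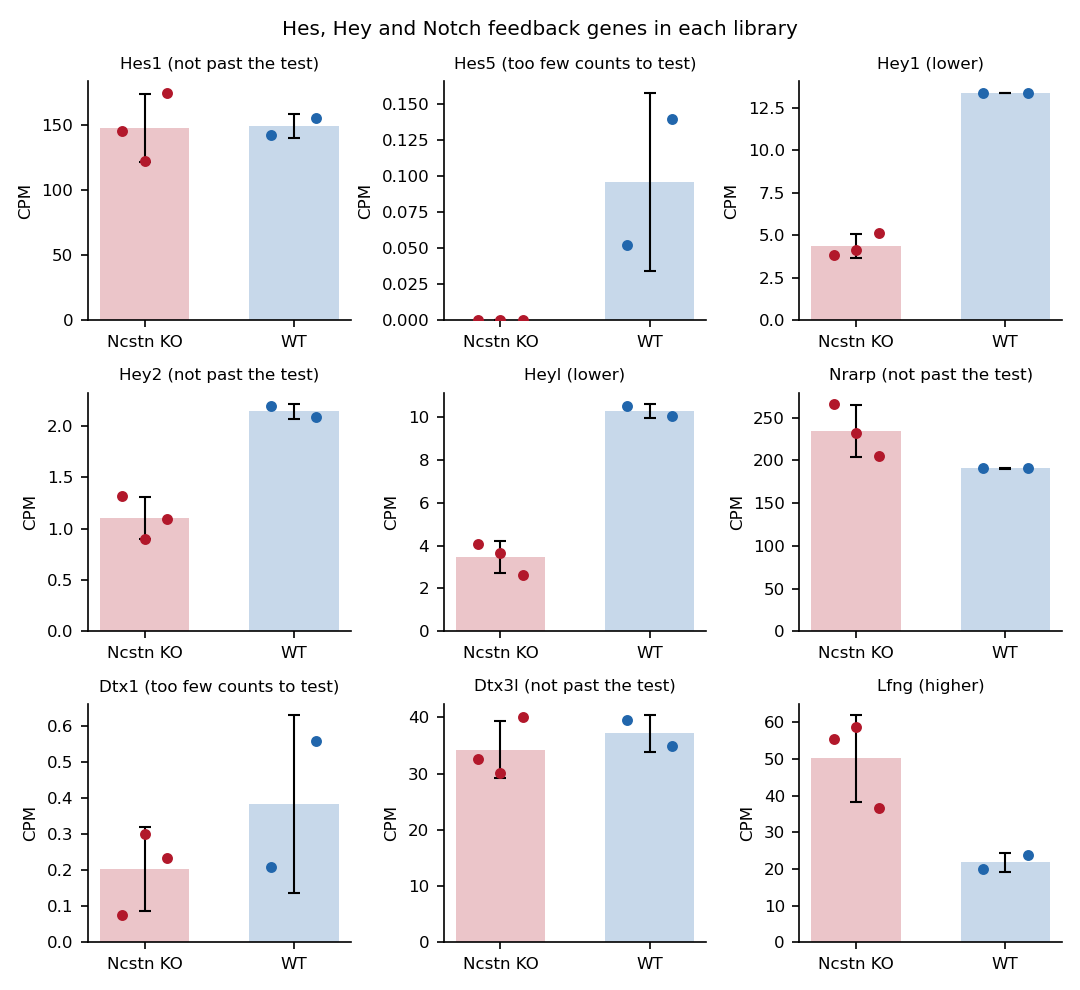
CPM of the 9 genes in each library, with Ncstn KO on the left and WT on the right of each panel. Points are single mice, bars are group means and whiskers are SDs (n = 3 and n = 2); Hey1, Hey2 and Heyl lie lower and Lfng and Nrarp higher in every knockout than in either wild type, while Hes1 and Dtx3l overlap.

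Set per length, as CPM per kilobase of merged exons in the GENCODE vM21 annotation of GRCm38, Nrarp and Hes1 were the most abundant members in both genotypes. Nrarp reached 90.8 ± 11.8 in the knockouts and 74.0 ± 0.223 in the wild types, and Hes1 reached 72.6 ± 12.9 in the knockouts and 73.4 ± 4.57 in the wild types (SD, n = 3 and n = 2). The ranges of these neighbours in the order overlapped within each genotype. Lfng followed at 20.03 ± 4.72 in the knockouts and 8.73 ± 1.03 in the wild types, and Dtx3l at 5.99 ± 0.895 in the knockouts and 6.49 ± 0.572 in the wild types. Hey1 came next at 1.34 ± 0.208 in the knockouts and 4.10 ± 0.00258 in the wild types. Heyl stood at 0.677 ± 0.143 in the knockouts and 2.01 ± 0.0638 in the wild types, and Hey2 at 0.240 ± 0.0453 in the knockouts and 0.466 ± 0.0158 in the wild types. From Lfng down to Hey2 no neighbours overlapped in either genotype. Dtx1 and Hes5 were the least abundant, and their ranges overlapped in the wild types.

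Hes1, the Hes gene most widely induced by Notch, lies on chromosome 16 from 30064384 to 30067796 on the plus strand (GRCm38). It measured 146, 123 and 175 CPM in KO 1, KO 2 and KO 3, against 143 and 156 CPM in WT 1 and WT 2. Both wild types lay inside the range of the knockouts. The log2 fold change was -0.02 ± 0.14 (SE) with an unadjusted 95% interval of -0.32 to 0.29 (edgeR adjusted p = 0.947). Its sign turned without KO 2 (0.09) and without WT 2 (0.03), in neither case past the test.

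Hes5, which follows Notch activity closely in neural progenitors, lies on chromosome 4 from 154960923 to 154962371 on the plus strand. It had no count in any knockout and 1 and 2 counts in WT 1 and WT 2. A count of 0 allows up to 0.0535 CPM over the pooled knockouts, and the 3 wild-type counts amount to 0.0896 CPM over the pooled wild types. The pooled ratio of knockout to wild type was 0, with a 95% interval of 0 to 1.45 that covers counting error alone. Any difference was not detectable at this depth. GENCODE lists a transcript on the opposite strand, Gm20421, over part of Hes5. The strand setting of the counting is unstated, so the few counts may come from either strand.

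Hey1, on chromosome 3 from 8663359 to 8667256 on the minus strand, encodes a repressor with roles in vessel and heart development. It had 102, 69 and 66 counts in KO 1, KO 2 and KO 3, which is 3.84, 4.15 and 5.14 CPM, against 256 and 192 counts or 13.4 and 13.4 CPM in WT 1 and WT 2. Every knockout lay below both wild types, with a gap wider than the spread within either group. Hey1 fell 3.09-fold (log2 fold change -1.63 ± 0.18 SE, edgeR adjusted p = 0.000389). The call held under all 14 alternatives, with log2 fold changes of -1.76 to -1.53.

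Heyl, on chromosome 4 from 123233556 to 123249875 on the plus strand, encodes the third member of the Hey family and is known in vessels as a gene of mural cells. It measured 4.07, 3.67 and 2.65 CPM in KO 1, KO 2 and KO 3, against 10.5 and 10.0 CPM in WT 1 and WT 2. Again the groups were well apart. Heyl fell 2.91-fold (log2 fold change -1.54 ± 0.21 SE, edgeR adjusted p = 0.00116), and this call too held under all 14 alternatives, from -1.69 to -1.40. KO 3 had the highest Hey1 and the lowest Heyl of the knockouts.

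Hey2, on chromosome 10 from 30832359 to 30842801 on the minus strand, encodes the Hey repressor known from arteries and the heart. It had 35, 15 and 14 counts in KO 1, KO 2 and KO 3, or 1.32, 0.902 and 1.09 CPM, against 42 and 30 counts or 2.19 and 2.09 CPM in WT 1 and WT 2. The groups did not overlap, but the counts were low. The log2 fold change of -0.93 ± 0.33 (SE) stayed above the threshold (edgeR adjusted p = 0.0713), with an unadjusted 95% interval of -1.66 to -0.20. Hey2 passed under none of 13 alternatives (log2 fold changes -1.11 to -0.82, adjusted p 0.0630 to 0.328); the filter at 5 CPM removed it.

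Nrarp encodes a small ankyrin repeat protein that binds the Notch intracellular domain and restrains it, and it lies on chromosome 2 from 25180758 to 25183339 on the plus strand. It measured 266, 232 and 205 CPM in KO 1, KO 2 and KO 3, against 191 and 191 CPM in WT 1 and WT 2. All knockouts were above both wild types, though KO 3 only slightly. Its log2 fold change was 0.30 ± 0.12 (SE; edgeR adjusted p = 0.102) and missed the threshold. Without KO 3 it passed, at 0.37 (edgeR adjusted p = 0.0276), and without KO 1 it was 0.19 and did not (0.304). GENCODE lists an antisense transcript, Gm38287, over nearly the whole of Nrarp. With the strand setting of the counting unstated, reads from either strand cannot be told apart.

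Lfng encodes lunatic fringe, a Golgi glycosyltransferase that extends the fucose on Notch receptors and changes which ligands they answer. The gene lies on chromosome 5 from 140607320 to 140615545 on the plus strand. It measured 55.3, 58.6 and 36.7 CPM in KO 1, KO 2 and KO 3, against 20.1 and 23.7 CPM in WT 1 and WT 2. Every knockout was above both wild types, with KO 3 the lowest of the knockouts. Lfng rose 2.31-fold (log2 fold change 1.21 ± 0.19 SE, edgeR adjusted p = 0.00240). Without WT 1 the log2 fold change was 1.08 and did not pass (edgeR adjusted p = 0.0553), so no member was called higher there.

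Dtx1 and Dtx3l belong to the Deltex group of ubiquitin ligases. Dtx1, the mammalian gene closest to the fly Notch regulator deltex, lies on chromosome 5 from 120680202 to 120711927 on the minus strand. It had 2, 5 and 3 counts in KO 1, KO 2 and KO 3, against 4 and 8 counts in WT 1 and WT 2. The pooled ratio of knockout to wild type was 0.498, with a 95% interval of 0.193 to 1.26 that covers counting error alone. A difference was not detectable at this depth.

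Dtx3l encodes a partner of the ADP-ribosyltransferase PARP9 in DNA repair and interferon signalling, and lies on chromosome 16 from 35926511 to 35939151 on the minus strand. It measured 32.6, 30.2 and 40.0 CPM in KO 1, KO 2 and KO 3, against 39.5 and 34.9 CPM in WT 1 and WT 2. The groups overlapped, and the log2 fold change was -0.12 ± 0.13 (SE) with an unadjusted 95% interval of -0.42 to 0.17 (edgeR adjusted p = 0.547). Parp9 lies on the opposite strand and overlaps Dtx3l by 682 bases at their shared start region, so reads there are uncertain. Parp9 measured 42.7, 40.8 and 46.6 CPM in KO 1, KO 2 and KO 3, against 45.6 and 45.9 CPM in WT 1 and WT 2, and did not pass either (log2 fold change -0.08 ± 0.10 SE, edgeR adjusted p = 0.614). In the same libraries 17 of 27 tested interferon response genes fell and none rose, with a median log2 fold change of -0.97. Ifit3 fell 4.82-fold and Gbp3 fell 2.44-fold (edgeR adjusted p = 0.000858 and 0.00138). The interferon genes that fell numbered 14 without KO 1, 14 without KO 2 and 20 without KO 3. All genes called numbered 1747, 1901 and 3989 in these fits, against 2907 with all libraries. Fewer interferon genes were called without WT 1 or without WT 2. Those fits hold 1 wild type, and fewer of all genes were called in them too. Dtx3l and Parp9 lay nearer to 0 than that median.

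**Figure D2:**
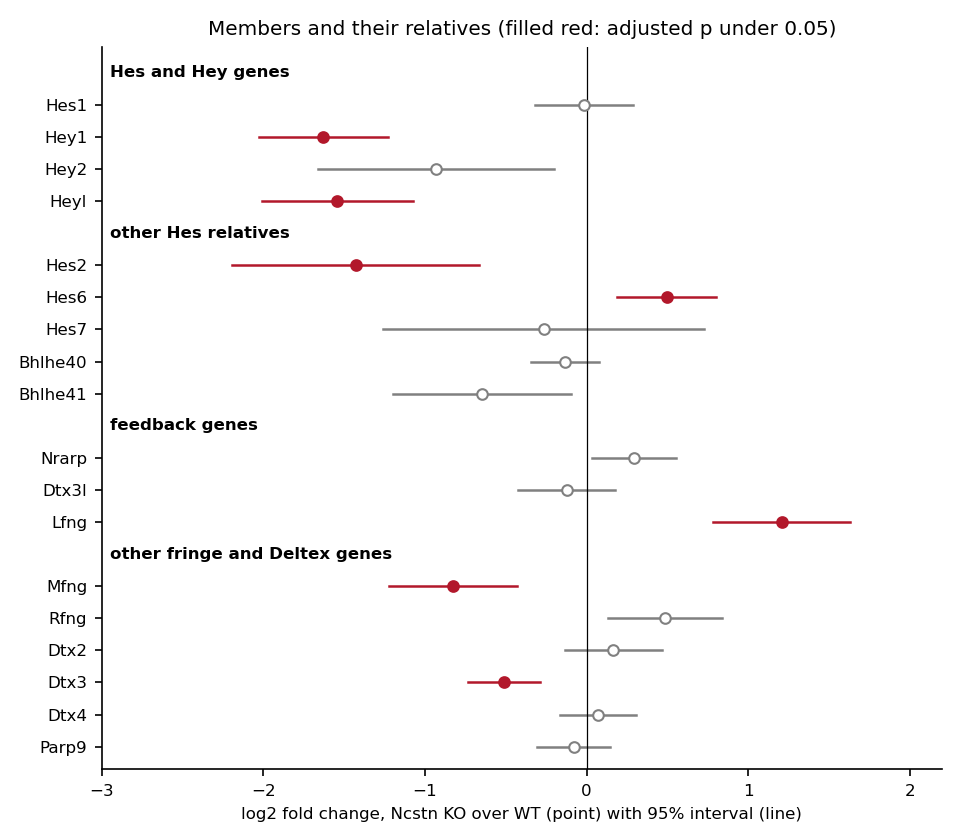
Log2 fold change of Ncstn KO over WT (points) with unadjusted 95% intervals (lines) for the tested members and their tested relatives. Filled red points passed at an adjusted p under 0.05; Hey1, Heyl, Hes2, Mfng and Dtx3 lie below 0 and Lfng and Hes6 above it.

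Promoter windows running from 250 bases before to 50 bases after the gene start were matched in RefSeq (GRCm38.p6) for 6 of the 9 members. The 6 were Hes5, Hey2, Nrarp, Dtx1, Dtx3l and Lfng. Hey1 and Heyl, the members that fell, and Hes1 had no matched window. The letters GTGGGAA, a core recognised by RBPJ, occurred on either strand in 3 of these 6 windows, those of Hes5, Hey2 and Lfng, and in 6.38% of 32851 windows of all genes. The sites are shown because Lfng rose, Hey2 did not pass and Hes5 was barely detected, although all hold the same letters. The shorter TGGGAA, contained in it, occurred in the same 3 windows and in 25.6% of all. The E-box CACGTG, a sequence bound by Hey and Hes proteins, occurred in 2 windows, those of Nrarp and Lfng, and in 7.15% of all, and the N-box CACNAG in 3 windows, those of Nrarp, Dtx1 and Lfng, and in 42.5% of all. In Lfng the E-box begins 112 bases before the start and overlaps the GTGGGAA that begins 109 bases before it. Each site is printed in the direction of its gene, with GTGGGAA or its complement TTCCCAC in capitals. They lie at chr5:140607221-140607249 (plus strand) for Lfng, chr10:30842973-30843001 and chr10:30842770-30842798 (minus strand) for Hey2, and chr4:154960686-154960714 and chr4:154960829-154960857 (plus strand) for Hes5.
Lfng: ccgtatcccacGTGGGAAggagagatctc
Hey2, far site: gcgcggtggcaTTCCCACgcctctgccaa
Hey2, near site: tgggctgcagcGTGGGAAagaacctccag
Hes5, far site: gggcgagcgcgTTCCCACagcccggacat
Hes5, near site: ggccgccgagtGTGGGAAcggccgcggcg
A match describes only the letters in these windows, and binding there was not tested.

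The relatives of the members were mixed as well. Of 7 other Hes and related repressor genes, 5 were tested, of which Hes2 fell and Hes6 rose. Hes2 measured 0.753, 1.14 and 0.934 CPM in KO 1, KO 2 and KO 3, against 2.19 and 2.86 CPM in WT 1 and WT 2, and fell 2.69-fold (edgeR adjusted p = 0.0173). Hes6, whose product is known to oppose Hes1, measured 36.0, 40.7 and 33.0 CPM in KO 1, KO 2 and KO 3, against 22.9 and 29.2 CPM in WT 1 and WT 2, and rose 1.41-fold (edgeR adjusted p = 0.0321). The call of Hes2 was lost without KO 1, WT 1 or WT 2 (edgeR adjusted p = 0.0582, 0.0973 and 0.132), and that of Hes6 without KO 1, KO 2 or WT 1 (0.0698, 0.0992 and 0.288).

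The fringe genes went apart. Manic fringe, Mfng, measured 5.04, 5.11 and 6.00 CPM in KO 1, KO 2 and KO 3, against 10.0 and 8.92 CPM in WT 1 and WT 2, and fell 1.77-fold (edgeR adjusted p = 0.0110). Radical fringe, Rfng, had a log2 fold change of 0.49 ± 0.16 (SE, edgeR adjusted p = 0.0568) and was not called. Among the Deltex relatives Dtx3 fell 1.42-fold (edgeR adjusted p = 0.00731), while Dtx2 and Dtx4 had log2 fold changes of 0.17 and 0.07 that did not pass. Mfng was lost without WT 1 (edgeR adjusted p = 0.129) and Dtx3 without WT 2 (0.0561).

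Upstream of the members, Notch1 and Dll1 were the receptor and ligand genes that passed out of 8 tested. Notch1 was 1.56-fold lower and the ligand gene Dll1 2.08-fold higher (edgeR adjusted p = 0.0115 and 0.00979), and neither passed without WT 1 (0.133 and 0.126), nor did Dll1 without WT 2 (0.0611). Among 13 genes of receptor processing and trafficking, the protease gene Furin rose 1.27-fold (edgeR adjusted p = 0.0295), Adam17, of the sheddase family, rose 1.23-fold (0.0388), and Mib1, a ligand-activating ubiquitin ligase gene named after its value was seen, fell 1.55-fold (0.0413). Of 15 nuclear effector and co-repressor genes, Tle3, which encodes a Groucho-type co-repressor that Hes proteins recruit, rose 1.31-fold (edgeR adjusted p = 0.0207). Rbpj measured 37.9, 33.9 and 37.9 CPM in KO 1, KO 2 and KO 3, against 42.9 and 37.0 CPM in WT 1 and WT 2, and was not called (edgeR adjusted p = 0.441). The calls of Tle3 and Furin were lost on leaving out KO 1, KO 2, WT 1 or WT 2 in turn, and that of Adam17 on leaving out any single library (largest edgeR adjusted p = 0.121, 0.159 and 0.149). Mib1 was lost without KO 1, KO 2 or WT 1 (edgeR adjusted p = 0.115, 0.0769 and 0.385). With all libraries, a filter at 5 CPM ended the calls of Furin and Adam17 (edgeR adjusted p = 0.0521 and 0.0680) and upper-quartile scaling that of Adam17 (0.0640).

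Of 10 other reported Notch targets, 2 rose, 2 fell and 6 did not pass. Myc, a growth-promoting transcription factor gene, measured 64.9, 71.5 and 59.0 CPM in KO 1, KO 2 and KO 3, against 23.9 and 27.0 CPM in WT 1 and WT 2, and rose 2.56-fold (edgeR adjusted p = 9.66e-05). The cyclin gene Ccnd1 fell 1.54-fold (edgeR adjusted p = 0.00441). Gata3, which rose, and Id3, which fell, had log2 fold changes of 0.35 and -0.42 and were named after their values were seen. Id3 was not called without KO 1, WT 1 or WT 2 (edgeR adjusted p = 0.0717, 0.0602 and 0.117), nor Gata3 without KO 1, KO 2, WT 1 or WT 2 (largest 0.193), with upper-quartile scaling (0.0591) or with a filter at 5 CPM (0.0661). Neither the members nor these targets moved in a single direction.

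Because Hey genes are also expressed in vessels and stroma, their levels were set beside markers of those cells. Of 14 endothelial markers 6 fell and none rose, and their summed level was 570 to 690 CPM in the knockouts and 797 to 847 CPM in the wild types. Among them Kdr and Sox17 fell 2.40-fold and 2.22-fold, while Pecam1 did not pass (log2 fold change -0.13). Of 11 pericyte and smooth muscle markers 3 fell, namely Abcc9, Cspg4 and, named after its value was seen, Pdgfrb, and none rose. Acta2 and Cnn1 overlapped between genotypes, with log2 fold changes of 0.54 and 1.33 (edgeR adjusted p = 0.0775 and 0.0824). Markers of this list called higher numbered 2 with no filter, with DESeq2, with the replicate block and without KO 3. The block also leaves KO 3, the only mouse with its number, out of the comparison, so the last 2 settings are not separate checks. The summed level, most of which was Rgs5, was 973 to 1089 CPM in the knockouts and 1047 to 1110 CPM in the wild types. Of 12 fibroblast markers 11 fell, including Lum and Serpinf1 at 3.01-fold and 2.31-fold lower, and the sum was 9235 to 10950 CPM in the knockouts and 15554 to 17678 CPM in the wild types. Markers called lower numbered 6 endothelial, 2 mural and 8 fibroblast without KO 1, and 7, 3 and 9 without KO 2. They numbered 8, 3 and 11 without KO 3. All genes called numbered 1747, 1901 and 3989 in these fits, against 2907 with all libraries. Fewer markers were called lower without WT 1, and fewer mural and fibroblast ones without WT 2. Those fits hold 1 wild type, and fewer of all genes were called in them too. Pdgfrb was not called without KO 1, KO 2, WT 1 or WT 2 (edgeR adjusted p = 0.0967, 0.0702, 0.299 and 0.0780), nor Cspg4 without WT 1 (0.139). None of these markers was at 0. In bulk tissue, fewer cells of a type and less RNA per cell cannot be told apart.

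Per 1000 CPM of endothelial markers, Hey1 came to 6.73, 6.01 and 8.31 CPM in KO 1, KO 2 and KO 3, against 15.8 and 16.8 CPM in WT 1 and WT 2. Heyl on the same scale came to 7.13, 5.32 and 4.28 CPM in KO 1, KO 2 and KO 3, against 12.4 and 12.6 CPM in WT 1 and WT 2. The groups stayed apart in both. The ratio of group means was 2.32-fold lower in the knockouts for Hey1 per endothelial markers, 2.92-fold per mural markers and 1.91-fold per fibroblast markers. For Heyl it was 2.24-fold, 2.88-fold and 1.82-fold lower. The endothelial sum was weighted to abundant markers such as Pecam1, Vwf and Eng, and the fibroblast sum to Col1a1, Col1a2 and Col3a1. Kdr and Lum fell more than the sums of their lists, and Pecam1 and Dcn less, so these ratios depend on the markers taken. Hey2 overlapped between genotypes per fibroblast markers, at 0.0839 to 0.143 CPM per 1000 in the knockouts and 0.124 to 0.134 in the wild types. Lfng was 3.01-fold higher per endothelial markers, 2.37-fold higher per mural markers and 3.71-fold higher per fibroblast markers. Those sums were 0.762, 0.963 and 0.621 of their wild-type means in the knockouts, which raises these ratios above the 2.31-fold of Lfng itself. The summed basal and umbrella markers were higher in the knockouts, at 1.23 and 1.51 times their wild-type means, and Lfng was not set against them.

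**Figure D3:**
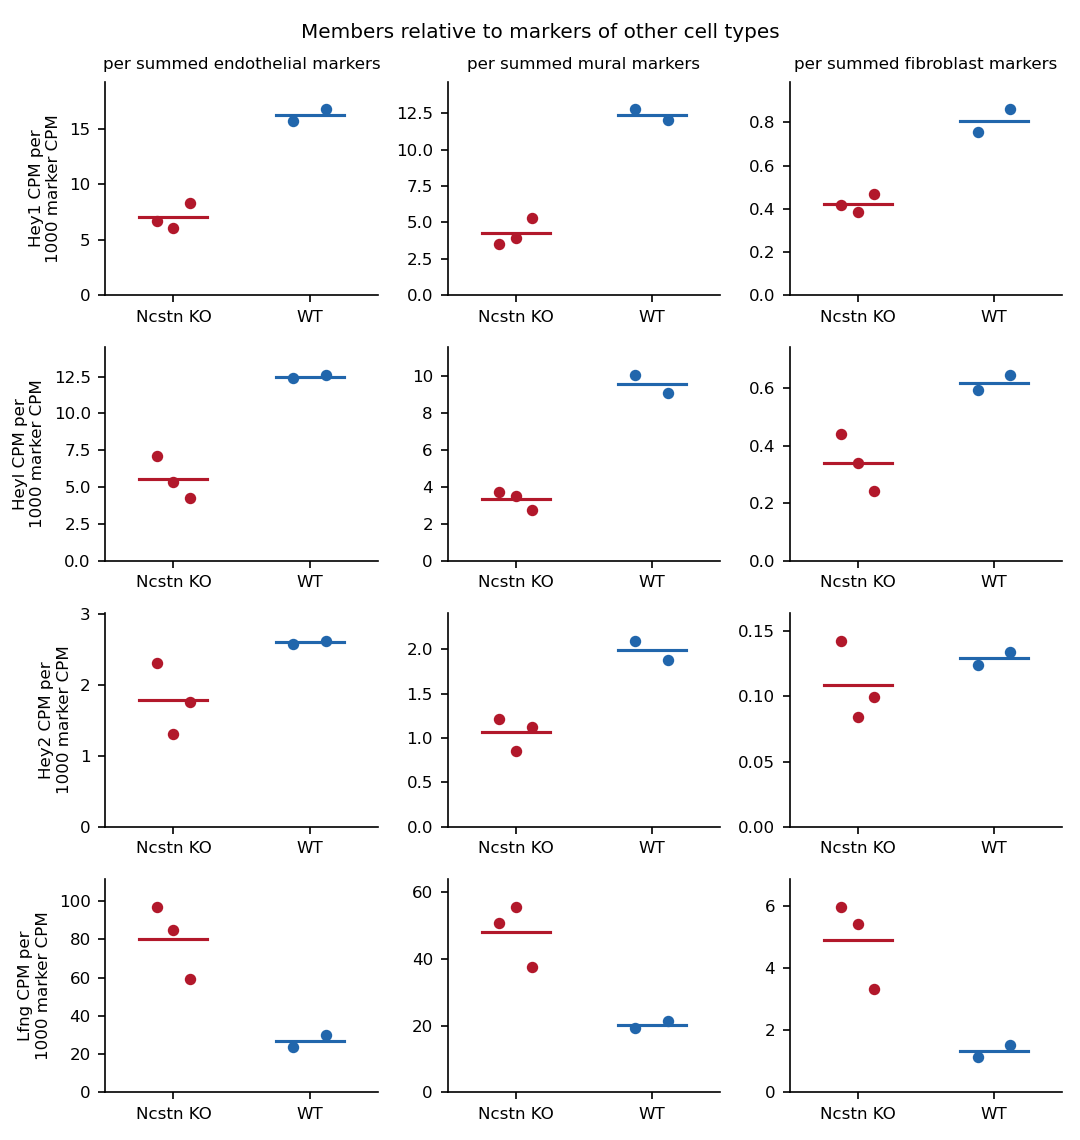
CPM of Hey1, Heyl, Hey2 and Lfng (rows) per 1000 summed CPM of endothelial, mural or fibroblast markers (columns), with Ncstn KO left of WT. Points are single libraries and bars are group means; Hey1 and Heyl are lower and Lfng higher in every knockout in all 3 columns, and Hey2 overlaps in the fibroblast column.

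Epithelial and other markers were checked in the same way. Of 9 umbrella cell markers 6 rose, with Upk2 and Snx31 1.83-fold and 1.66-fold higher. Of 9 tested basal markers 3 rose and Itga6, named after its value was seen, fell, with Krt14 32.9-fold and Cdh3 2.32-fold higher. Of 7 tested immune markers Cd14 rose 1.77-fold, and Adgre1 did not pass (log2 fold change -0.68). Adgre1 was called lower under 4 of 14 alternatives, namely no filter, limma-voom, the replicate block and without KO 3. None of 5 glial and nerve markers passed, including Gfra3 (log2 fold change 0.27). Without WT 1, 2 umbrella and 2 basal markers rose and no basal marker fell, the umbrella count was 4 without KO 1, 3 without KO 2 and 5 without WT 2, and without KO 3, 6 basal markers rose. The part of these marker changes in the levels of the members was not tested.

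**Figure D4:**
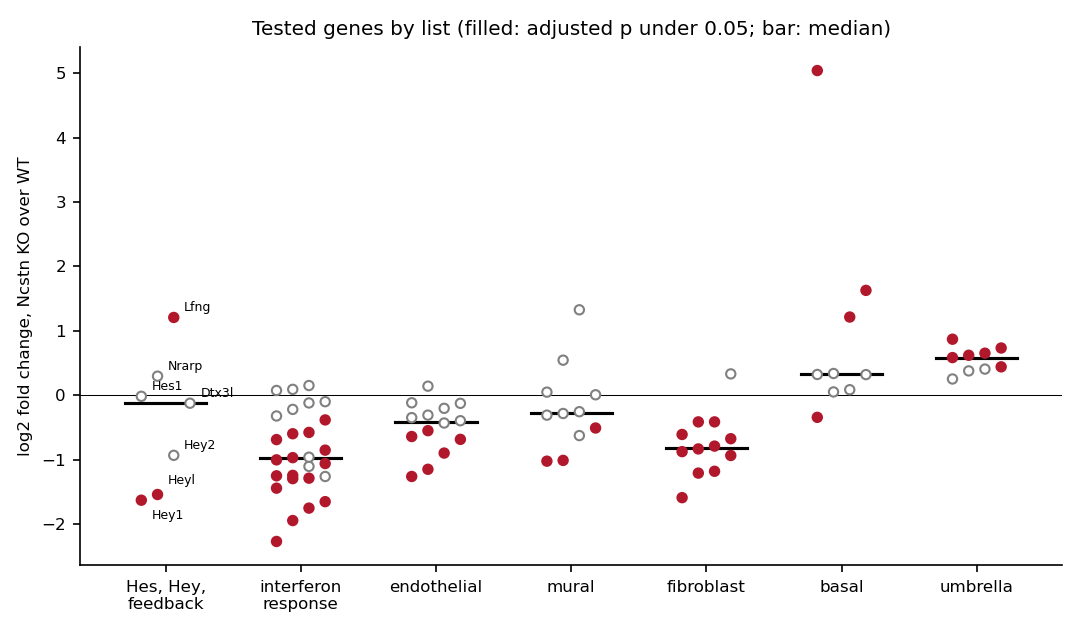
Log2 fold change of Ncstn KO over WT for tested genes of the members and of 6 other lists, each point a gene, filled where the adjusted p was under 0.05, with the list median as a bar. Interferon and fibroblast genes lie mostly below 0 and umbrella markers above it, with medians of -0.97, -0.81 and 0.58, while the members spread on both sides of 0.

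Genes whose pattern over the 5 libraries was nearest to each called member were found by the root mean square difference in centred log2 CPM, among genes within 1 log2 unit of its mean level. With 5 libraries in 2 genotypes, this measure is set mostly by the size of the genotype difference. For Hey1, out of 2564 candidates, they were the collagen gene Col24a1 (0.0831), the zinc finger gene Zfp951 (0.0900) and the tetraspanin gene Tspan11 (0.0946), which were 2.90-fold, 3.26-fold and 2.78-fold lower. For Heyl, out of 2331, they were the forkhead factor gene Foxl1 (0.0904) and the proliferation markers Mki67 (0.132) and Top2a (0.134), which were 2.94-fold, 3.15-fold and 2.45-fold lower. For Lfng, out of 5351, they were Mrps6 (0.0746), a mitochondrial ribosomal protein gene, the adhesion gene Icam1 (0.0966) and the cysteine dioxygenase gene Cdo1 (0.0981), which were 2.17-fold, 2.52-fold and 2.40-fold higher. Foxl1 had 6.06, 4.63 and 3.97 CPM in KO 1, KO 2 and KO 3, against 14.6 and 14.7 CPM in WT 1 and WT 2.

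**Figure D5:**
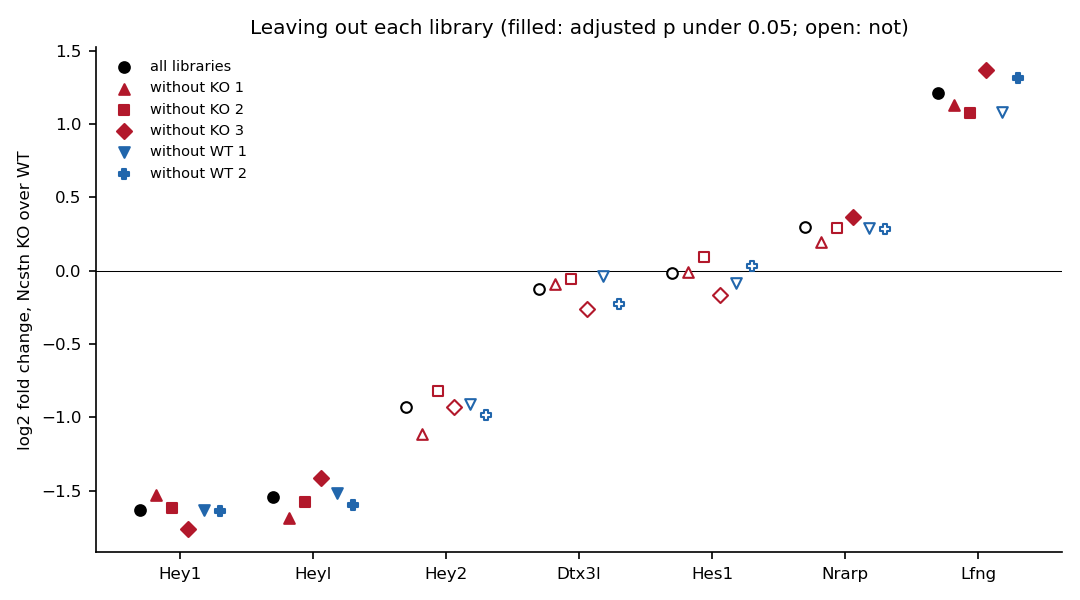
Log2 fold change of Ncstn KO over WT for the 7 tested members with all libraries and without each library in turn, filled where the adjusted p was under 0.05. Hey1 and Heyl stay filled in all 6 fits, Lfng is open without WT 1, Nrarp is filled only without KO 3, and Hes1 and Dtx3l stay near 0.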

How the data were processed

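The deposited values were raw gene counts, 1 file per library and mouse, and nothing was realigned. HISAT2 2.1.0 and HTSeq 0.11.1, along with DESeq2 and build mm10, are named in the submitters' processing notes, which leave the annotation and strand setting of the counting unstated. Per the labels' protocols, libraries came from total RNA with an Illumina TruSeq kit. The 5 summary entries of the counting program held 39.4% to 43.8% of tallied reads in the knockouts and 45.1% to 50.7% in the wild types and entered neither library sizes nor tests.

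The filter filterByExpr (minimum count 10, minimum total 15) kept 14779 genes, which were scaled by TMM (factors 0.978 to 1.03), and tested with the edgeR quasi-likelihood test, knockout over wild type, with Benjamini-Hochberg adjustment over all genes. Versions were edgeR 4.0.16, DESeq2 1.42.0 and limma 3.58.1 in R 4.3.3. SEs come from the F statistic, and CPM uses the TMM-scaled sizes. Intervals on pooled counts and the floor of 3 counts over a group cover counting error only. The test was checked on simulated data. Each library was taken as 1 mouse, as the design text describes separate mice.

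The members, lists, rule for named genes and alternatives were chosen with earlier results of these data known. The rule names all members, the genes past the test in the lists of other Hes relatives, other fringe and Deltex genes, receptors and ligands, gamma-secretase and nuclear effectors, the 2 smallest p of each other list, and the 3 genes nearest in pattern to each called member (prior count 2), and a few of these are not reported here. Alternatives were 2 other scalings, no filter, a filter at 5 CPM in 2 libraries, a robust fit, DESeq2, limma-voom, a replicate block, leaving out structural RNA, and leaving out each library. The block leaves KO 3, which shares its number with no wild type, out of the comparison.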

Additional observations from a re-analysis of the deposited data

How the results depend on the processing

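The 2 members lower in the knockouts numbered 2 under all 14 alternatives. The single member called higher became 2 with no filter and with the replicate block, and 0 to 2 on leaving out single libraries (0 without WT 1, 2 without KO 3). The gene added was Nrarp, with edgeR adjusted p = 0.0489 with no filter, 0.0130 with the block and 0.0276 without KO 3. KO 3 shares its number with no wild type, so the block leaves it out of the comparison. The block and the fit without KO 3 are therefore not separate checks. Hes1 ran from -0.17 (without KO 3) to 0.0897 (without KO 2) on the log2 scale, and was 0.03 without WT 2; the cause was not tested. All genes called numbered 4637 with the replicate block, against 2907 without it, and 715 (without WT 1) to 3989 (without KO 3) on leaving out single libraries. The labels state no pairing of same-numbered mice, and the deviations of such mice from group means correlated at -0.06 (number 1) and 0.05 (number 2). With 2 wild types, the deviations of WT 1 and WT 2 mirror each other, so these 2 values are not separate checks. With no filter, Hes5 and Dtx1 did not pass (edgeR adjusted p = 0.235 and 0.519). Other scalings moved the median log2 fold change of all genes to -0.03 with upper-quartile scaling and to 0.000461 with RLE scaling, beside 0.01 with TMM, and turned no member's direction. Leaving out a wild type leaves 1 mouse in that group, which is then assumed to vary like the knockouts. Depth limits Hes5 and Dtx1, which had too few counts to test.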
